A study of Mus musculus with 6 samples.

Results

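Immediate early genes are genes that a calcium or kinase signal can switch on without new protein synthesis, through transcription factors already present in resting cells. Their mRNAs are usually short-lived. Many of the encoded proteins are transcription factors (the FOS and JUN subunits of AP-1, the EGR and KLF zinc finger proteins and the NR4A nuclear receptors), and others switch the signal off again, such as the dual-specificity phosphatases that act on MAP kinases and ZFP36, which removes mRNAs rich in A and U. In neutrophils several of them are also known to respond to handling and isolation of the cells. The members described here are 32 named genes of this class, found by symbol among the 41388 genes of each deposited table, and all 32 were found.

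RNA came from bone marrow neutrophils of C57BL/6 mice, labelled with 250 nM DIBAC4(3), a dye that fluoresces more in depolarized cells, and treated with 100 nM ionomycin, which carries calcium across membranes. From a sorter, 20000 cells of a depolarized and of a polarized population were taken 2 to 4 minutes after the stimulus, and an ultra-low-input kit turned their RNA into cDNA. All 6 libraries, 3 per population, are from dye-loaded and stimulated cells, so no resting level was measured and no value below is an induction. Each polarized library has a depolarized partner with the same code in its title, which gives 3 biological replicate pairs, here A, B and C in the order of the codes. The sources used here do not say whether a pair came from 1 mouse or from a pool.

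Totals lay between 16904969 and 20381489 counts per library. Neutrophil markers dominated: 8 genes, among them S100a8, S100a9 and Ly6g, summed to between 161559 and 221974 CPM (the count of a gene scaled by the library total), with the highest sum in the polarized library of pair C. Markers of early neutrophils (Mpo, Elane, Ctsg, Prtn3, Fcnb and Ms4a3) summed to 39.6 CPM (pair A), 87.1 CPM (pair B) and 330.2 CPM (pair C) in polarized cells, against 1.62, 0.834 and 14.5 CPM in their depolarized partners. All 6 were called lower in depolarized cells by edgeR, against 0.241% of all tested genes. These markers passed the filter on low counts through the polarized libraries, where they were higher, so this count had been favoured by the filter. Their part in the differences of the immediate early genes was not tested. These are bulk libraries, in which fewer cells of a type and less RNA per cell cannot be told apart.

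Transcripts of this class were abundant in both populations, but the abundance sat in a few genes. On the RPKM scale (CPM per kilobase of gene, which allows genes of different length to be compared), 17 members had a mean level of at least 10, 6 of them of at least 100, while 8 lay between 1 and 10 and 7 were under 1. Zfp36 and Fos led with 824 and 781 RPKM over the 6 libraries, followed by Btg2 with 438, Klf6 with 176, Ier3 with 134 and Dusp1 with 121 RPKM. The order of these first genes is not firm everywhere: Zfp36 was at 781 ± 86.2 RPKM (SD, n = 3) in polarized and 867 ± 185 RPKM in depolarized cells, which overlaps Fos. By mean RPKM, Zfp36 ranked 63 and Fos 69 among all genes. Together Fos, Zfp36, Btg2 and Klf6 made up 77.1% of the CPM of all 32 members. The summed CPM of the members was 6479 (pair A), 6514 (pair B) and 6219 (pair C) for polarized cells and 6362, 7183 and 8166 for their depolarized partners, so the groups overlapped.

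**Figure D1:**
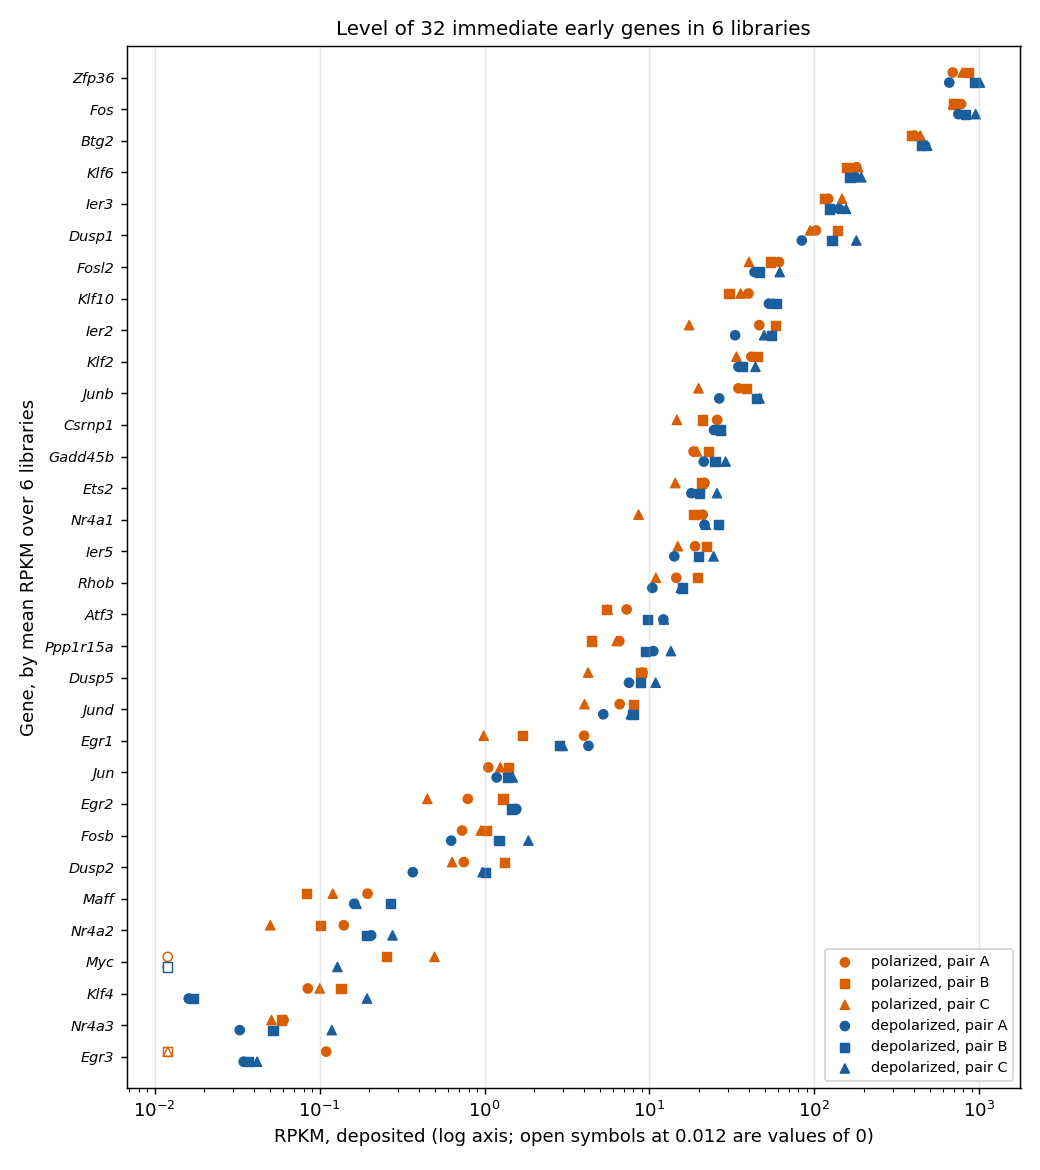
Deposited RPKM (log axis) of the 32 genes in each library, ordered by mean RPKM, with polarized libraries in orange, depolarized libraries in blue and a symbol for each pair. The levels span from 824 RPKM for Zfp36 to 0.0371 RPKM for Egr3, and for most genes both populations lie close together on this scale.

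Within families the members differed by orders of magnitude. Among AP-1 genes, Fos stood at 723 ± 45.7 RPKM (SD, n = 3) in polarized and 839.6 ± 103 RPKM in depolarized cells, whereas its close relative Fosb was at 0.905 ± 0.156 and 1.23 ± 0.609 RPKM. Fosl2, another FOS-related subunit, had a mean of 51.2 RPKM. Of the JUN subunits that pair with these, Junb was the most abundant with 35.1 RPKM, and Jund had 6.59 and Jun 1.29 RPKM. The value of Jund is uncertain, since 52.6% of its exon length in GENCODE M21 is overlapped on the opposite strand by Gm11175, which was listed at 0 counts, and the strand setting of the counting is not given. Smaller shares were overlapped on the opposite strand for Dusp5 (22.1%, by AC137853.2), Junb (7.52%, by Prdx2) and Jun (7.28%, by Junos). Lesser shares still were overlapped for Csrnp1 (6.45%, by 1700019L13Rik), Zfp36 (3.60%, by Gm44710), Ppp1r15a (0.409%, by Tulp2) and Dusp1 (0.332%, by Ergic1).

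Zinc finger factors showed the same spread. Klf6 had 176 RPKM, Klf10, a repressor induced by TGF-beta, 45.6 RPKM, and Klf2, a factor of leukocyte quiescence, 39.3 RPKM, while Klf4, a factor of the monocyte lineage, was at 0.0912 RPKM. Egr1 was at 2.80, Egr2 at 1.18 and Egr3 at 0.0371 RPKM. Of the NR4A orphan receptors, Nr4a1 was at 19.7 RPKM and its relatives Nr4a2 and Nr4a3 at 0.161 and 0.0623 RPKM. Among the phosphatases, Dusp1 (121 RPKM) exceeded Dusp5 (8.24 RPKM) and Dusp2 (0.844 RPKM).

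Promoter sequences of the most abundant members and of those with the largest steady difference between populations are shown to let a reader see which known response elements lie there. A window of 250 bases before the start site was available from RefSeq (GRCm38.p6) for 27 of the 32 members, in 36 windows. Klf10, Egr3, Myc, Ier2 and Egr1 had no window. Sites further than 250 bases before the start were not searched, so a member without a match can hold one there. The CArG box, the site of serum response factor, was found on either strand in windows of 3 members (Zfp36, Dusp5 and Egr2), that is 11.1% of the 27 members against 1.62% of all genes with a window, or 16.7% of the 36 member windows against 1.47% of all windows. The cyclic AMP response element TGACGTCA was found in 4 members (Btg2, Dusp1, Maff and Ppp1r15a), 14.8% of members against 1.77% of genes. The AP-1 site TGANTCA was found in 1 member (Csrnp1), 3.70% of members against 7.82% of genes. The core TGACG of the cyclic AMP element, searched after the others had been seen and holding every match of TGACGTCA, was present in 17 members, 63.0% of members against 19.8% of genes. Windows of 1 gene can overlap, so they are not independent. A match is a description of letters and not a bound site. Capitals mark these matches, with every sequence written 5′ to 3′ toward the start site.
Fos: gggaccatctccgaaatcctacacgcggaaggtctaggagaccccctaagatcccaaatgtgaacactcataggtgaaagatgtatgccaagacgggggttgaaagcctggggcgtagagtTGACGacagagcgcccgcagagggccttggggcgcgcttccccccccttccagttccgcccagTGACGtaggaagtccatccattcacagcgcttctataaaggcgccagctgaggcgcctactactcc
Zfp36: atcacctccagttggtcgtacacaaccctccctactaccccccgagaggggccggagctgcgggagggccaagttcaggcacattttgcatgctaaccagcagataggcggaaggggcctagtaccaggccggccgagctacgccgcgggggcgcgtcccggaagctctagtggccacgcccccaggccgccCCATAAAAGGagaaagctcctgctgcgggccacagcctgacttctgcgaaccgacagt
Ppp1r15a: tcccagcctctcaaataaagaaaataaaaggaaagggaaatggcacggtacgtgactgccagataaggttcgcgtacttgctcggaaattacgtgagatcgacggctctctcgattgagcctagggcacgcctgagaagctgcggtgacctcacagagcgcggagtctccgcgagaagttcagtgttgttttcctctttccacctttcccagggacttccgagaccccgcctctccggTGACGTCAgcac
Atf3: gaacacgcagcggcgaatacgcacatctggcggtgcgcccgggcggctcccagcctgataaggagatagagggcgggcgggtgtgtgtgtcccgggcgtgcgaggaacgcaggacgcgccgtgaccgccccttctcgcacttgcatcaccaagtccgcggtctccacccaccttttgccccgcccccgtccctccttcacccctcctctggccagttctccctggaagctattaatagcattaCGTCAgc
The Fos window (chr12:85473640-85473889, plus strand) held TGACG at 129 and at 66 bases before the start, the Zfp36 window (chr7:28379229-28379478, minus strand) a CArG box at 58 bases, the Ppp1r15a window (chr7:45526269-45526518, minus strand) the whole cyclic AMP element at 12 bases and the Atf3 window (chr1:191183334-191183583, minus strand) TGACG on the other strand at 7 bases.

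Fold changes below are on the log2 scale after TMM scaling of the libraries, whereas printed CPM are as deposited. The comparison of the populations asks which of these transcripts differ between cells that depolarized and cells that stayed polarized during calcium entry. By edgeR's quasi-likelihood test, blocked on the pair, with Benjamini-Hochberg adjustment over 9971 tested genes, 0 of the 27 members that passed the filter on low counts were called, higher or lower, at an adjusted p under 0.05. Of all tested genes, 0.0802% were called higher and 0.241% lower. At an unadjusted p under 0.05, 6 members were higher (Ppp1r15a, Atf3, Klf10, Egr1, Nr4a1 and Egr2) and 0 lower, against 3.26% and 3.32% of all tested genes. This one-sided split did not hold when pair C was left out. There 6 members were higher and 5 lower at that threshold in edgeR, and 2209 of 10102 tested genes passed it in either direction. DESeq2 with the pairs called 1 member, Ppp1r15a (adjusted p 0.0119), with 0.16% of all genes called higher and 0.231% lower, and DESeq2 without them called 0, with 0.0501% of all genes higher and 0.181% lower. The median log2 fold change of the 27 members (depolarized minus polarized) was 0.14 against -0.00 over all tested genes, and 21 of 27 were fitted above 0 against 49.6% of all genes. Without pair C the member median was 0.04 against -0.01 over all tested genes, and 16 of 27 were fitted above 0. Nr4a2, counted among the 21 above 0, passed the filter through the depolarized libraries, where it was higher. For 21 of the 27 the 95% interval of the log2 fold change held 0, and for 21 it lay within a fold of 2 in either direction.

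Ppp1r15a, whose product GADD34 lets the phosphatase PP1 restart translation after stress, had the lowest p of the members. The gene lies at chr7:45522916-45526268 (GRCm38). It was at 19.3, 13.03 and 18.6 CPM in the polarized and 31.0, 27.7 and 39.6 CPM in the depolarized libraries of pairs A, B and C. All depolarized values exceeded all polarized ones, and the difference was of similar size in each pair (0.74, 1.04 and 0.86 on the log2 scale). The fitted log2 fold change was 0.89 ± 0.19 (SE), a fold of 1.85, and its adjusted p in edgeR was 0.0787. Leaving out pair C, it was called by edgeR at 0.89 (adjusted p 7.64e-06), where 4.95% of all genes were called higher. It was not called by edgeR without pair A (adjusted p 0.130), without pair B (0.81, adjusted p 1) or without the block (adjusted p 0.439).

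Atf3 (chr1:191170296-191183340), a stress-inducible bZIP factor, was nearly as regular. Its values were 14.4, 10.9 and 11.1 CPM in polarized and 24.1, 19.2 and 24.3 CPM in depolarized cells of pairs A, B and C. The groups did not overlap, and the pair differences were 0.80, 0.77 and 0.90. The log2 fold change was 0.83 ± 0.20 (SE) and the adjusted p in edgeR was 0.133. Atf3 was called by edgeR without a filter on low counts (adjusted p 0.0438, 0.227% of all genes called higher) and without pair C (0.79, adjusted p 0.000589, 4.95% called higher). It was not called by edgeR with a stricter filter (adjusted p 0.173), without pair A (0.343), without pair B (1) or without the block (0.406).

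Klf10 (chr15:38294413-38300707) stood at a higher level, with 121, 92.4 and 109 CPM in polarized and 161, 180.1 and 170.0 CPM in depolarized cells. Again every depolarized library lay above every polarized one. Pair differences were 0.48, 0.92 and 0.42, the log2 fold change was 0.61 ± 0.18 (SE) and edgeR gave an adjusted p of 0.305. When pair C was left out the value was 0.70 (edgeR adjusted p 3.41e-07, with 4.95% of all genes called higher). Leaving out pair A gave 0.67 (edgeR adjusted p 0.597) and leaving out pair B 0.45 (edgeR adjusted p 1).

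The calcium- and serum-responsive factors Egr1, Egr2 and Nr4a1 were also above 0 in every pair, but by unequal amounts. Nr4a1, induced by antigen receptor and calcium signals in lymphocytes, was at 52.1, 46.1 and 21.3 CPM in polarized and 53.4, 64.8 and 54.3 CPM in depolarized cells, and the polarized library of pair C was the low one. Its pair differences were 0.10, 0.45 and 1.12, and the log2 fold change of 0.55 ± 0.21 (SE, edgeR adjusted p 0.522) was 0.28 without pair C. Egr1 was at 18.0, 7.63 and 4.44 CPM and at 19.1, 12.8 and 13.4 CPM, with overlapping groups and a log2 fold change of 0.72 ± 0.25 (SE, edgeR adjusted p 0.447), or 0.41 without pair C. Egr2 had 2.69, 4.40 and 1.53 CPM against 5.30, 4.95 and 5.15 CPM. The depolarized values of Egr2 were close to each other and above the polarized ones, and its log2 fold change was 0.87 ± 0.33 (SE, edgeR adjusted p 0.55), or 0.58 without pair C.

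**Figure D2:**
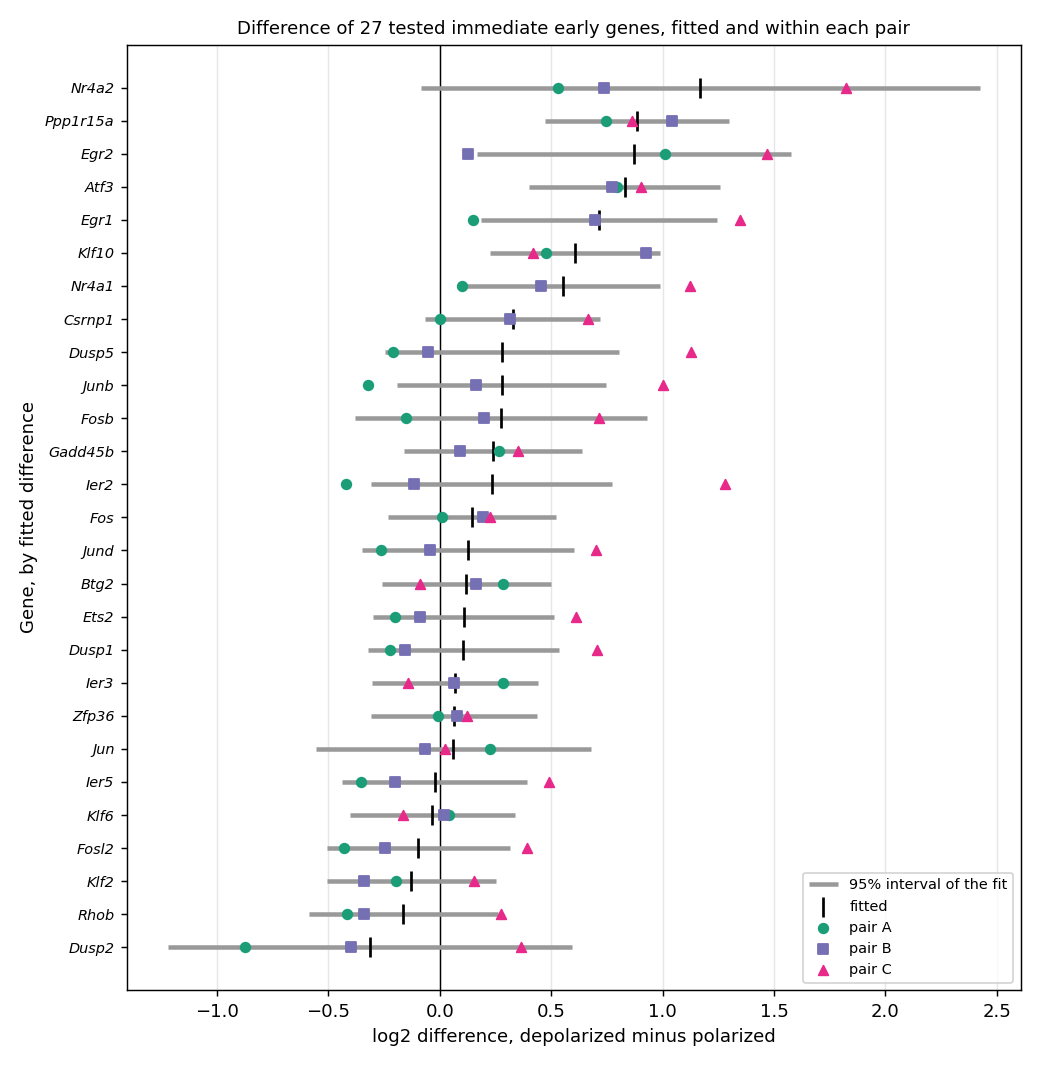
Fitted log2 difference (black tick) with its approximate 95% interval (grey bar) and the difference within each pair (coloured symbols) for the 27 tested genes, depolarized minus polarized. Ppp1r15a and Atf3 have all 3 pair values well above 0, from 0.74 to 1.04 for Ppp1r15a and from 0.77 to 0.90 for Atf3, whereas Ier2, Dusp5 and Junb have pair C far to the right of pairs A and B.

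The most abundant members did not pass the test and had narrow intervals. Fos, the AP-1 subunit used as a marker of recent stimulation, was at 1824, 1643 and 1633 CPM in polarized and 1757, 1932 and 2235 CPM in depolarized cells. The groups overlapped through pair A, and the log2 fold change was 0.14 with a 95% interval from -0.23 to 0.52 (edgeR adjusted p 1). Zfp36 had 1237, 1544 and 1417 CPM against 1179, 1673 and 1807 CPM and an interval from -0.31 to 0.44. Btg2, an antiproliferative gene whose product promotes removal of poly(A) tails, had 1106, 1062 and 1204 CPM against 1288, 1223 and 1325 CPM. Its deposited CPM values did not overlap between groups, but they did once divided by the TMM scaling factors, and the interval was from -0.26 to 0.50. Klf6, which acts in myeloid inflammatory responses, had 733 ± 60.2 CPM (SD, n = 3) against 751 ± 59.3 CPM, and its log2 fold change of -0.03 was 0.03 when library totals alone were used for scaling and also without pair C.

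Deposited CPM did not overlap, with depolarized cells higher, for 7 of the 27 tested members (Btg2, Klf10, Nr4a1, Atf3, Ppp1r15a, Egr2 and Nr4a2) against 7.28% of all tested genes, and with depolarized cells lower for 0 against 3.14%. On TMM-scaled CPM the counts were 6 against 4.58% and 0 against 4.54%. Nr4a2 passed the filter through the depolarized libraries, with 22 counts in all polarized and 51 in all depolarized libraries, so its place in that count had been favoured by the filter. It was at 0.569, 0.411 and 0.204 CPM against 0.834, 0.782 and 1.12 CPM and was not called (log2 fold change 1.17 ± 0.59, SE, edgeR adjusted p 0.802).

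Pair C stood apart from the other pairs for much of this class. The median difference of the 27 members was -0.00 in pair A, 0.08 in pair B and 0.61 in pair C, while over all tested genes it was -0.01, -0.00 and 0.01. In pair C 24 of the 27 members were above 0 against 50.5% of all tested genes. The counts were 16 against 49.8% in pair B and 13 against 49.2% in pair A. The pattern of a value below 0 in pairs A and B and above 0 in pair C was seen for 10 members (Dusp1, Fosl2, Ier2, Klf2, Ets2, Ier5, Rhob, Dusp5, Jund and Dusp2) against 20.2% of all tested genes. Above 0 in all 3 pairs were 9 members (Fos, Klf10, Gadd45b, Nr4a1, Atf3, Ppp1r15a, Egr1, Egr2 and Nr4a2) against 12.9%, and below 0 in all 3 were 0 against 12.1%. Nr4a2, counted among these 9 and among those above 0 in each pair, was favoured there by the filter as well.

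**Figure D3:**
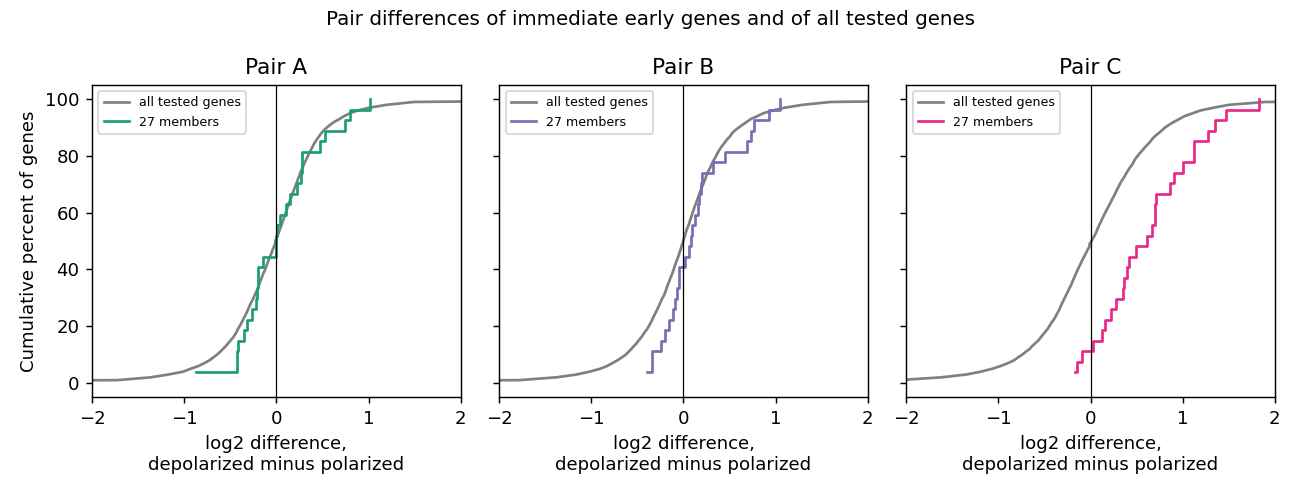
Cumulative percent of genes (vertical axis) by log2 difference between depolarized and polarized cells (horizontal axis) in each pair, for the 27 tested members in colour and for the 9971 tested genes in grey. The member curve follows the grey curve in pair A and lies to its right in pair C, where the member median is 0.61.

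The clearest case of this pattern was Ier2, a short nuclear protein gene of the serum response. It was at 70.5 and 88.5 CPM in the polarized libraries of pairs A and B and at 26.5 CPM in that of pair C, against 50.3, 83.9 and 75.5 CPM in depolarized cells. The polarized library of pair C was thus the low value, and the pair differences were -0.42, -0.12 and 1.28. The fitted log2 fold change of 0.23 was -0.27 without pair C. Junb had 63.8, 71.3 and 36.5 CPM in polarized and 48.8, 81.9 and 85.6 CPM in depolarized cells and was fitted at 0.28, or -0.08 without pair C. Dusp5, a nuclear phosphatase of ERK, had 22.5, 22.0 and 10.50 CPM against 18.6, 21.7 and 26.97 CPM, and its 0.28 became -0.13 without pair C.

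Not all of the contrast in pair C came from a low polarized library. Dusp1, a phosphatase of p38 and JNK, had 276, 374 and 254 CPM in polarized and 226, 345 and 485 CPM in depolarized cells, so there the depolarized library of pair C was the high one. Fosl2 had 357, 316 and 235 CPM against 254, 274 and 361 CPM. It was the only member called lower in any of the fits run, at -0.34 without pair C (edgeR adjusted p 0.0246), where 5.13% of all genes were called lower. On TMM-scaled CPM, 0 of the 27 members were below their own mean of the 6 libraries in the depolarized library of pair C and 20 in the polarized one. The counts were 14 in the polarized libraries of pairs A and B each and 16 and 9 in the depolarized libraries of pairs A and B. The matching shares of all tested genes were not computed, so these counts have no background beside them. The lowest TMM-scaled CPM lay in the depolarized library of pair C for 0 members, against 15.8% of all tested genes. It lay in the polarized library of pair C for 10 members, against 21.9%. The polarized library of pair C also held the highest sum of early neutrophil markers, 330.2 CPM, and had the lowest TMM factor, 0.876. The part of either in these values was not tested.

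**Figure D4:**
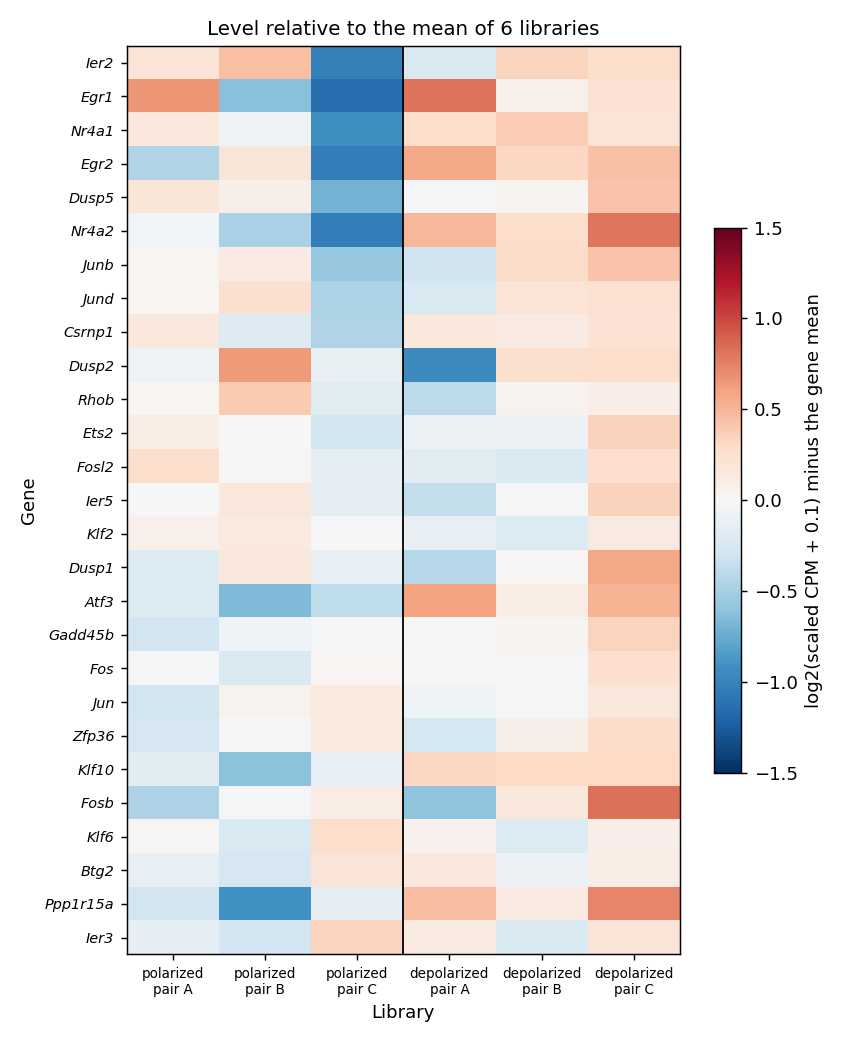
Level of each tested gene in each library relative to its mean over the 6 libraries, as log2(TMM-scaled CPM + 0.1), with genes ordered by the level in the polarized library of pair C relative to the other polarized libraries. Blue in the third column marks Ier2, Egr1, Nr4a1, Egr2 and Dusp5 low in that library, and 0 genes are below their mean in the last column, the depolarized library of pair C. The share of all tested genes below their mean there was not computed.

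Csrnp1, Gadd45b and Ets2 lay above 0 as fitted and were not called. Csrnp1, a nuclear protein gene induced by AXIN1, had 73.9, 60.3 and 42.1 CPM in polarized and 70.7, 77.1 and 78.3 CPM in their depolarized partners (fitted at 0.33, edgeR adjusted p 0.884). Gadd45b, a stress sensor that acts on the p38 and JNK cascade, had 23.4, 28.9 and 24.5 CPM against 27.03, 31.6 and 36.7 CPM. Ets2, an ETS factor downstream of ERK, had 89.0 ± 18.6 against 100.0 ± 18.8 CPM (SD, n = 3). Ier3, an early gene with a role in cell survival, had 145 ± 19.3 against 158 ± 18.3 CPM. Each of these had overlapping groups.

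Klf2, Rhob, Ier5 and Dusp2 were fitted below 0, as were Klf6 and Fosl2 (-0.10), and all of these had overlapping groups. Polarized cells had 74.2 ± 10.97 CPM of Klf2 (SD, n = 3) and depolarized cells 71.0 ± 9.001 CPM, and Rhob had 33.3 ± 9.54 and 30.9 ± 6.72 CPM. Ier5 had 61.1 ± 12.0 and 63.8 ± 16.9 CPM, with a log2 fold change of -0.02 whose sign changed with the scaling and the block. Dusp2, a phosphatase of activated leukocytes, was at 1.81 ± 0.733 and 1.57 ± 0.727 CPM, with an interval from -1.22 to 0.59 that leaves more than a fold of 2 possible. Jun, Fosb and Jund were fitted above 0 (0.06, 0.27 and 0.13) and were not called either. Jun and Fosb were at 3.93 ± 0.551 and 3.40 ± 0.586 CPM in polarized and 4.30 ± 0.482 and 4.62 ± 2.28 CPM in depolarized cells. Jund was at 17.9 ± 5.75 and 20.1 ± 4.30 CPM.

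The other 5 members were too low for the filter and were tested by edgeR only where it admitted them. Maff, a small MAF factor, had a sum of 16 counts in polarized and 24 in depolarized cells, Nr4a3 had 19 and 22, and Egr3 had 3 and 3. Klf4 had 18 and 12 counts. Myc, the growth factor-induced bHLH factor, had 39 and 6 counts, at 0, 0.705 and 1.38 CPM in the polarized and 0, 0 and 0.355 CPM in the depolarized libraries of pairs A, B and C. For Myc most counts thus came from the polarized libraries of pairs B and C. Fitted by edgeR without a filter, Myc was at -2.99 ± 1.05 (SE) on the log2 scale with an unadjusted p of 0.00444 and an adjusted p of 0.299, so it was not called. Without pair A it passed the filter and was at -2.97 (edgeR adjusted p 0.102). Myc passed there through the polarized libraries, where it was higher, so this value had been favoured by the filter. The unadjusted p of the other 4 in the edgeR fit without a filter lay between 0.32 and 0.962. At this depth 3 counts, the limit that a count of 0 allows, correspond to 0.155 CPM in the polarized and 0.147 CPM in the depolarized library of pair A and to 0.156 CPM in the depolarized library of pair B.

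Genes that act upstream of the members or beside them were compared in the same fit. Of 19 tested kinases of the ERK, JNK and p38 cascades, 0 were called, with a median log2 fold change of 0.04. Of the 20 tested transcription factors and cofactors known to act on genes of this class, such as SRF, CREB and the NFAT proteins, 0 were called and the median was 0.05. By lowest p among them, Ets1 had 105 ± 19.7 and 85.4 ± 19.9 CPM (SD, n = 3) and Mef2c 14.0 ± 1.96 and 10.9 ± 2.14 CPM in polarized and depolarized cells, with edgeR adjusted p of 0.778 and 0.793. Among the kinases Map2k3 had 155 ± 32.4 and 191 ± 22.1 CPM and Rps6ka2 17.1 ± 3.42 and 14.5 ± 0.490 CPM. Of 28 tested paralogs and partners of the members 0 were called, with a median of -0.14. Dusp16, a phosphatase of JNK, was at 1.91 ± 0.792 and 4.94 ± 2.90 CPM (edgeR adjusted p 0.462), with a pair difference of 2.69 in pair C and of 0.31 and 0.62 in pairs A and B, and the AP-1 factor gene Batf was at 12.5 ± 3.34 and 18.2 ± 1.59 CPM (edgeR adjusted p 0.696), each without overlap of the groups.

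Of 15 tested genes listed as secondary response genes or as genes with AU-rich mRNAs, 0 were called. Their median was 0.09, with 11 of 15 above 0 against 49.6% of all tested genes. At an unadjusted p under 0.05 there were 5 of them, all fitted higher in depolarized cells. Of all tested genes, 3.26% were higher and 3.32% lower at that threshold. By lowest p these were led by Il1b, the interleukin 1 beta gene, at 762, 588 and 601 CPM in polarized and 1004, 953 and 1086 CPM in depolarized cells of pairs A, B and C, without overlap (log2 fold change 0.58 ± 0.18, SE, edgeR adjusted p 0.317). The chemokine gene Ccl4 had 73.6, 49.8 and 44.1 CPM against 97.3, 79.6 and 66.2 CPM (edgeR adjusted p 0.482), higher within each pair though the groups overlapped. Of 8 tested heat shock genes, which like the members can respond to handling of cells, 0 were called and the median was 0.04. Hspa5, the chaperone of the endoplasmic reticulum, was at 130.4 ± 15.6 and 163 ± 6.68 CPM, and the mitochondrial Hspe1 at 0.776 ± 0.389 and 0.547 ± 0.271 CPM.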

How the data were processed

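The authors deposited, per the file headers, a count, a CPM and an RPKM value for 41388 genes in each of 6 libraries. The deposited CPM equalled the count scaled by the library total and the deposited RPKM equalled CPM per kilobase, with a largest difference of 4.8e-10 for CPM. Per the submitters' processing notes, bcl2fastq, STAR 2.0.4b, Subread and featureCounts 1.45 were used with GRCm38. No source used here gives the strand setting, the handling of reads with several matches or the release of the annotation.

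Symbols were matched for 40254 genes, and the 1134 without one held 0.131% of the counts. Gene counts entered edgeR 4.0.16, run in R 4.3.3 (filterByExpr, TMM, quasi-likelihood test, replicate code as a block, 2 residual degrees of freedom) over 9971 genes, with Benjamini-Hochberg adjustment and a threshold of 0.05. DESeq2 1.42.0 was an alternative. The functions were tested on simulated data. The SE was taken as the absolute log2 fold change over the root of F, and 95% intervals are approximate. Pair differences are of log2 CPM with a prior count of 2.0. Floors of 3 counts cover counting error only.

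The pairing rests on the series' design, which names 3 biological replicate pairs. Deviations of the libraries of a pair correlated at 0.08, 0.27 and 0.03 for pairs A, B and C. The run number in the titles is 2 in all libraries but the depolarized one of pair B, where it is 1, so a run could not be separated from that library. The p-values rest on the spread between these libraries, where the variance of each gene was drawn toward values shared across the tested genes. They thus do not measure the spread of each gene by itself, and neither do the SE and intervals. All 32 members are named; of the 5 pathway lists, called genes or else the 2 with the lowest p. Members and lists were chosen with earlier results of these data known. Promoter windows came from RefSeq (GRCm38.p6) and exon overlaps from GENCODE M21.

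Among marker lists of other cells, summed CPM in the polarized and in the depolarized libraries of pairs A, B and C were 895, 1007 and 1174 and 903, 819 and 816 for monocytes. Of the 4 tested monocyte markers Csf1r was fitted higher in depolarized cells and Ly6c2, Ccr2 and F13a1 lower, and 0 were called by edgeR. For macrophages the sums were 119, 102 and 93.2 and 150.04, 109 and 112, where Adgre1 alone held 103, 59.1 and 72.9 and 129.8, 103 and 106. The other 5 macrophage markers were fitted lower in depolarized cells, none was called by edgeR, and the list's median log2 fold change was -1.01. For eosinophils the sums were 36.7, 423 and 169 and 55.8, 165 and 44.2, where Prg2 alone held 22.0, 389 and 149 and 36.6, 136 and 18.3. Prg2 and Epx were fitted lower in depolarized cells (log2 fold change -1.37 and -2.17) and Siglecf and Ccr3 higher (0.59 and 0.66), and none was called by edgeR. For erythroid cells the sums were 62.9, 42.5 and 39.4 and 29.6, 26.9 and 96.1. B cell markers stayed at or under 11.2, T and NK cell markers at or under 28.5 (of which Nkg7 was called lower, at 2.17, 2.64 and 11.7 and at 0.0491, 0.0521 and 0.710, edgeR adjusted p 3.21e-05), basophil and mast cell markers at or under 2.40, megakaryocyte markers at or under 1.36 and stromal and endothelial markers at or under 10.8 CPM, with Cdh5 at 0. Nkg7 passed the filter through the polarized libraries, where it was higher, and 0.241% of all tested genes were called lower. The part of these cell types in the results was not tested.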

Additional observations from a re-analysis of the deposited data

How the results depend on the processing

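Without the replicate block, edgeR called 0 genes higher and 0 lower, against 8 and 24 with the pairing. Genes called higher were 16 with DESeq2 and the block, 5 with DESeq2 and no block, 50 without a filter, 5 with a stricter filter, 0 with the length trend removed, 0 with library totals only and 0 without the polarized library of pair C and no block. Genes called lower were 96 without a filter, 3 with a stricter filter, 8 with the length trend removed, 6 with library totals only and 1 without that library. Library totals moved the median of all genes by 0.06. With 1 pair left out, 9 to 500 genes were called higher and 36 to 518 lower, the highest of each without pair C. Members called higher were 1 with DESeq2 and the block (Ppp1r15a), 2 without a filter (Atf3 and Ppp1r15a) and 0 to 3 with a pair left out, and members called lower were 0 to 1.

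The median of the members ranged from 0.04 (without pair C) to 0.27 with a pair left out. Over the same fits the log2 fold change ranged from -0.070 to 0.031 for Klf6, -0.039 to 0.17 for Ier3, -0.19 to 0.28 for Dusp1, -0.34 to 0.075 for Fosl2, -0.27 to 0.58 for Ier2, -0.079 to 0.58 for Junb, -0.14 to 0.26 for Ets2, -0.28 to 0.15 for Ier5, -0.13 to 0.54 for Dusp5, -0.15 to 0.33 for Jund and -0.019 to 0.13 for Jun. Without the polarized library of pair C and no block, Klf6 was at 0.088, Ier2 at -0.18 and Jund at -0.061. With library totals Klf6 was at 0.034 and Ier5 at 0.044, and without the block Ier5 was at 0.0012 in edgeR and 0.0023 in DESeq2. The causes were not tested. In 224 comparisons of a gene's place by level, 38 moved when a library was left out, by at most 2 places, and 23 moved on the CPM scale, by at most 5. The library total scaling, the fits without the polarized library of pair C and DESeq2 without the block were chosen after seeing the data. Genes under about 1 CPM are limited by depth.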

Other observations

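Targets of ATF4 and of the stress response were listed after the values of Ppp1r15a and Atf3 had been seen. Of 10 such genes 8 were tested, 0 were called by edgeR in either direction, and their median log2 fold change was 0.08. At an unadjusted p under 0.05 in edgeR 1 was higher, against 3.26% of all tested genes. Chac1, a glutathione-degrading enzyme gene, was at 9.06, 14.7 and 16.7 CPM in the polarized and 12.5, 16.4 and 33.0 CPM in the depolarized libraries of pairs A, B and C (log2 fold change 0.47, edgeR adjusted p 0.733), and the depolarized library of pair C was the high one. Ddit3, which encodes CHOP, was at 64.9, 58.1 and 72.6 CPM against 77.9, 69.5 and 79.4 CPM (log2 fold change 0.15, edgeR adjusted p 1), with overlapping groups. Atf4 was at 55.1, 50.5 and 39.1 CPM against 42.2, 51.2 and 45.1 CPM.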
